A study of Caenorhabditis elegans with 2 samples.

Results

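The calls described here are 1054 regions on chromosomes I to V of Caenorhabditis elegans that were listed in both replicates of 1 chromatin immunoprecipitation experiment and whose summit lay near the 5′ end of a protein-coding gene. They were chosen in steps. Of the 21050 calls of replicate 1, 16524 were on the autosomes, and 3981 of these overlapped a call of replicate 2 by at least 1 bp. For 1109 of them the summit lay at most 500 bp from where a protein-coding transcript is annotated to begin. A tRNA, snoRNA or snRNA gene lay within 500 bp of 55 of the 1109, and these were set aside. Because overlap between replicates and position chose the calls, both are given as descriptions, with no test. The calls overlapped 945 distinct calls of replicate 2, and 217 of the 1054 shared their replicate 2 call with another of the 1054, so they are fewer independent sites than their number.

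The samples were 2 libraries from whole hermaphrodites of strain OP385, with genotype unc-119(tm4063) III and the integrated transgene wgIs385, which adds F55B11.4 with a C-terminal GFP-FLAG tag. All animals carried the tagged transgene and the unc-119 mutation, and were young adults, collected 65 hours after release from L1 starvation. Chromatin was immunoprecipitated through the GFP tag. The labels number the libraries as biological replicates 1 and 2 and name separate biosamples. They form 1 group, and no untagged or input sample was analysed here. The labels name no promoter for the transgene. Replicate 2 held 14257 calls on genome build ce11, a list of the pooled reads held 670, and the optimal set, selected by the authors through the irreproducible discovery rate procedure, held 48 peaks. How many reads went into each list is unknown. Each call carries the authors' score of peak strength, whose scale no source used here gives. The replicate and pooled lists are permissive, made to hold background as well as peaks, as the deposited file names say. Scores were compared only through ranks within a list, with rank 1 the strongest call.

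The 5′ end of a gene is where its promoter lies, the stretch of DNA on which transcription factors and RNA polymerase II assemble. In this worm an annotated 5′ end is not always the start of transcription. Many messenger RNAs receive a short leader by trans-splicing, and neighbouring genes on 1 strand can be transcribed together as an operon and then separated. A factor that acts at promoters is commonly looked for by asking whether its calls gather at 5′ ends.

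The windows below come from the strongest calls in both replicates, so that the sequence under them can be seen beside the values that follow. Each reaches 50 bases to either side of the summit of replicate 1 on the plus strand of the RefSeq WBcel235 assembly, 5′ to 3′. Only windows free of annotated untranslated bases are shown, and the other calls of similar strength are described in words. Capitals mark matches to any of the 12 short motifs described further on.
hsp-1, chrIV:17279360-17279460: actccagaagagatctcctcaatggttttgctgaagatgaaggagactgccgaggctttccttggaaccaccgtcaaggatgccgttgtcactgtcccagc
T26H5.8, chrV:15432166-15432266: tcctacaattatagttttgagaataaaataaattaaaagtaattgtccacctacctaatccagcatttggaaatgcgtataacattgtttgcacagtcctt
ift-43 and mdt-26, chrII:5661219-5661319: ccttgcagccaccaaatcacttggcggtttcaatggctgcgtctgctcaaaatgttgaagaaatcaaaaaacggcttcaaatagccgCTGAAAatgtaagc
pot-3, chrIII:13780114-13780214: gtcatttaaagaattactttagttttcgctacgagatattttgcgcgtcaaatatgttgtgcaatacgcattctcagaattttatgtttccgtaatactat
Y17G7B.21, chrII:11977428-11977528: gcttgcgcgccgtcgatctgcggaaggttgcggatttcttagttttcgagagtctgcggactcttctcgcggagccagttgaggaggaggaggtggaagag
T26A8.4, chrIV:8431168-8431268: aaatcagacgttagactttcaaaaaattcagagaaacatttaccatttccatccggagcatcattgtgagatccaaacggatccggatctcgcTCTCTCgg
The 6 windows differed widely in base composition. The T26H5.8 window, in an intron, held 30.7% G and C, and the Y17G7B.21 window, in a coding exon, held 58.4%. Only the mdt-26 and T26A8.4 windows held a searched motif, CTGAAA in the first and TCTCTC in the second.

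The strongest calls in both replicates lay at a small set of unrelated genes. An optimal peak overlapped 5 of the 1054, and 10 of the 2736 other reproducible autosomal calls with no small RNA gene nearby. Ordered by the worse of the 2 ranks, the first of the 1054 was at kin-14, which encodes a tyrosine-protein kinase. Its call (chromosome I, 7079196 to 7079685, summit 7079441) scored 27 in replicate 1, rank 25, and 28.4 in replicate 2, rank 69. The summit was inside the gene, in an untranslated region (minus strand, 5′ end at 7079575). A second call of replicate 1 at the same gene, with its summit 94 bp upstream of the 5′ end, scored 18.5, rank 154, and overlapped the same replicate 2 call. The 2 kin-14 calls thus overlap each other and 1 replicate 2 call, so they make 1 site.

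The call at Y17D7C.2, annotated by RefSeq as an ADP-ribosyl cyclase, had the highest score of the 1054 in replicate 1. It lay on chromosome V (18719790 to 18720279, summit 18720035), 48 bp upstream of the 5′ end, and scored 30.6 in replicate 1, rank 24, and 27.9 in replicate 2, rank 73. The call at hsp-1, the constitutive Hsp70 chaperone, had its summit in a coding exon (chromosome IV, 17279165 to 17279654, summit 17279410), 451 bp inside the gene. It scored 20.1 in replicate 1, rank 80, and 33.5 in replicate 2, rank 36. The optimal peak over it has its summit at 17279494, which is more than 500 bp from the 5′ end, so hsp-1 is included here only through its replicate 1 summit. The call at T26H5.8, annotated as a glycosyl transferase of family 11, lay in an intron (chromosome V, 15431971 to 15432460, summit 15432216). It scored 24.6 in replicate 1, rank 30, and 25.8 in replicate 2, rank 105, with summits of the replicates at 15432216 and 15432012. The optimal peak over it has its summit at 15432007. The 5′ end used for T26H5.8 is at 15432584, more than 500 bp from both the replicate 2 and the optimal summit. As for hsp-1, that end was thus near the replicate 1 summit only.

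Below these 4 genes the calls were absent from the optimal set, and the 2 next in order were also absent from the pooled list. The call at mdt-26 and ift-43, genes named for a Mediator subunit and an intraflagellar transport protein, scored 18.3 in replicate 1, rank 169. In replicate 2 it scored 26.4, rank 96. Its summit (chromosome II, 5661269) was 88 bp inside mdt-26 and 483 bp upstream of ift-43. The call at pot-3, a gene with the single-stranded DNA binding domain of telomere protection proteins, had its summit 51 bp upstream of the 5′ end (chromosome III, 13780164). It scored 17.8, rank 209, and 25.8, rank 104. In its window 44.7% of the 32-base words occurred more than 1 time in the genome, the most among the 20 strongest. The replicate summits were 456 bp apart at mdt-26 and 338 bp apart at pot-3.

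The remaining 13 of the 20 strongest were at cif-1, C56C10.7, C47E8.11, Y17G7B.21, R119.3, T26A8.4, ZK112.4, F42A6.6, icl-1, sea-2, nex-4, nmy-2 and W02D7.6. Their ranks ran from 84 to 1045 in replicate 1 and from 147 to 1016 in replicate 2, and all 13 overlapped a pooled call. The cif-1 product is shared by the COP9 signalosome and the translation initiation factor eIF3. Its call scored 17.1, rank 272, and 20.8, rank 417. The icl-1 product is an enzyme of the glyoxylate cycle, sea-2 takes part in the counting of autosomes in sex determination, and nmy-2 encodes a non-muscle myosin of the embryonic cortex. The nmy-2 call ranked 84 in replicate 1 and 1016 in replicate 2, the widest gap in rank among the 20 in that direction. The sea-2, nex-4 and T26A8.4 calls were among those at an internal 5′ end. The C56C10.7 summit was 429 bp upstream of that gene, in a coding exon of another. The sea-2 window was 61.7% GC, the highest of the 20. Y17G7B.21 and W02D7.6 carry a bZIP and a C2H2 zinc finger domain by annotation, which are DNA-binding domains. By place, 11 of the 20 summits were in coding exons, 4 outside protein-coding genes, 3 in untranslated regions and 2 in introns.

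The 10 calls with the highest pooled score added 3 genes. These were lelo-2 (pooled score 43.8), F47B8.14 (41.3) and T12D8.10 (39.1) and all ranked far higher in replicate 2 than in replicate 1. The lelo-2 call ranked 1509 in replicate 1 and 40 in replicate 2. It counts through an internal 5′ end at 1420371. Its summit, at 1419892, is near the 3′ end of the gene (minus strand, 1419855 to 1427226). The F47B8.14 call ranked 2208 and 57, and the T12D8.10 call ranked 3942 and 63. The T12D8.10 summit was 462 bp upstream of that gene, in a coding exon of another. A second call at R119.3, a short-chain dehydrogenase gene, ranked 20384 in replicate 1 and shared its replicate 2 call, rank 529, with the stronger call there.

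Across all 1054, strength in one replicate said little about strength in the other. The median rank was 9019 of 21050 in replicate 1 (quartiles 3987 and 14982.5) and 5646.5 of 14257 in replicate 2 (quartiles 2553 and 9740.75). Scores ran from 6.59 to 30.6 in replicate 1, with a median of 9.01, and from 10.2 to 34.0 in replicate 2, with a median of 13.3. The Spearman correlation of the ranks across the 1054 calls was 0.0783, given as a description since the calls share libraries and some share a partner. It was 0.20 over the 165 calls among the strongest 5000 of both lists. Among the strongest 5000 were 323 calls in replicate 1, 475 in replicate 2 and 165 in both, and 18 were among the strongest 1000 of both lists. The other 2736 reproducible autosomal calls with no small RNA gene nearby had median ranks of 9378 and 6310 and a correlation of 0.0827.

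**Figure D1:**
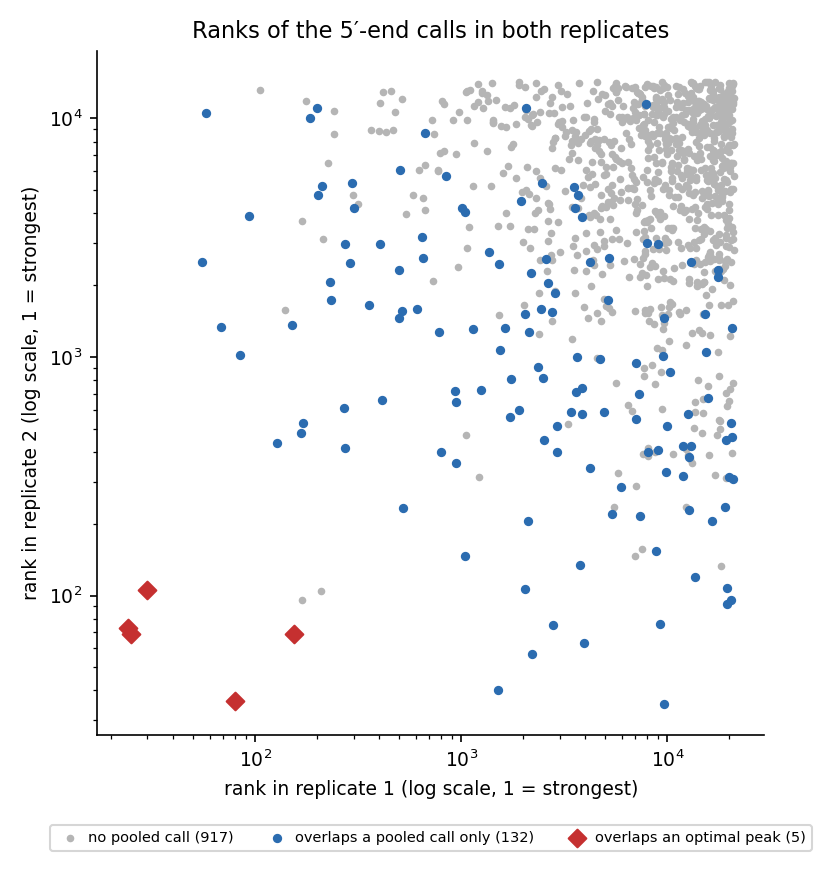
Rank of each of the 1054 calls in replicate 1 (x axis, log scale) and of its overlapping call in replicate 2 (y axis, log scale), with 1 the strongest. Red diamonds overlap an optimal peak (5), blue points overlap a pooled call only (132) and grey points neither (917); the diamonds sit at ranks up to 154 and 105, while most points lie beyond rank 1000 in both lists.

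The q-values of the authors' peak caller were high. No call of the set had q under 0.1 in replicate 1, where the smallest was 0.119, and 5 had it in replicate 2, where the smallest was 0.0992. With q under 0.2 there were 35 in replicate 1 and 23 in replicate 2. The median q was 0.791 in replicate 1 and 0.821 in replicate 2, and all but 147 of the 1054 had q of 0.5 or more in replicate 1. The other 2736 reproducible autosomal calls had median q-values of 0.803 and 0.844. Their smallest q in replicate 1 was 0.0707. High q-values were thus not particular to the 1054. The overlap of the 1054 is an overlap of permissive lists. A pooled call overlapped 137 of the 1054 (13%, exact 95% interval 11 to 15.2). The share was 12.1% among the other reproducible autosomal calls, and 3.55% among all autosomal calls of replicate 1. Pooled calls come from the same reads, so they add no independent evidence. Those with a pooled call had median ranks of 2484 and 862.

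The summits of the 2 replicates lay close together more often than far apart. Their distance was at most 99 bp for 435 of the 1054 (41.3%), 100 to 199 bp for 20.1%, 200 to 299 bp for 19.6%, 300 to 399 bp for 12.6% and beyond that for 6.36%. The other reproducible autosomal calls had nearly the same shares, with 39.3% at most 99 bp apart. The calls were of nearly fixed width, with medians of 490 and 470 bp in the respective lists, which bounds the distance at which calls can overlap.

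Reproducible calls lay at 5′ ends slightly more often than the other calls of the same list. The share was 27.9% of the 3981 reproducible autosomal calls (exact 95% interval 26.5 to 29.3) and 26.1% of the 12543 with no overlap in replicate 2 (25.3 to 26.8). In all, 26.5% of autosomal calls in replicate 1 were at 5′ ends. In replicate 2 the shares were 28.4% of 3796 and 26.2% of 7832. All these shares count calls near small RNA genes as well. Sequence within 500 bp of such an end made up 24.0% of the autosomes. Read the other way, 24.6% of the replicate 1 calls at 5′ ends with no small RNA gene nearby overlapped a replicate 2 call, beside 24.1% of all its autosomal calls and 23% of those elsewhere. In replicate 2 the values were 33.5% at 5′ ends, 31.3% elsewhere and 32.6% for all its autosomal calls. These intervals cover the counting of calls only, and no test was made over calls, which are not replicates.

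The share at 5′ ends changed little with strength. Calls near small RNA genes were left out of the shares by rank. Among the remaining 40 autosomal calls in the strongest 100 of replicate 1 the share at 5′ ends was 32.5% (interval 18.6 to 49.1). Among those beyond rank 10000 it was 25.8% (24.9 to 26.7). In replicate 2 it was 12 of 40 (16.6 to 46.5%) and 25.3% (23.9 to 26.8). What rose with strength was the overlap between replicates, at 5′ ends and elsewhere alike. At 5′ ends, 9 of the 13 calls in the strongest 100 of replicate 1 overlapped a replicate 2 call (69.2%, interval 38.6 to 90.9), beside 14 of 27 elsewhere (51.9%). In the strongest 100 of replicate 2 the order was reversed, with 8 of 12 at 5′ ends (66.7%) and 21 of 28 elsewhere (75%). Beyond rank 10000 of replicate 1 the shares were 21.2% at 5′ ends and 20.1% elsewhere. For the next ranks, up to 500, they were 53.2% (41.6 to 64.5) and 37.5% (30.3 to 45.1) in replicate 1, but 42 of 84 and 105 of 209 calls in replicate 2.

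**Figure D2:**
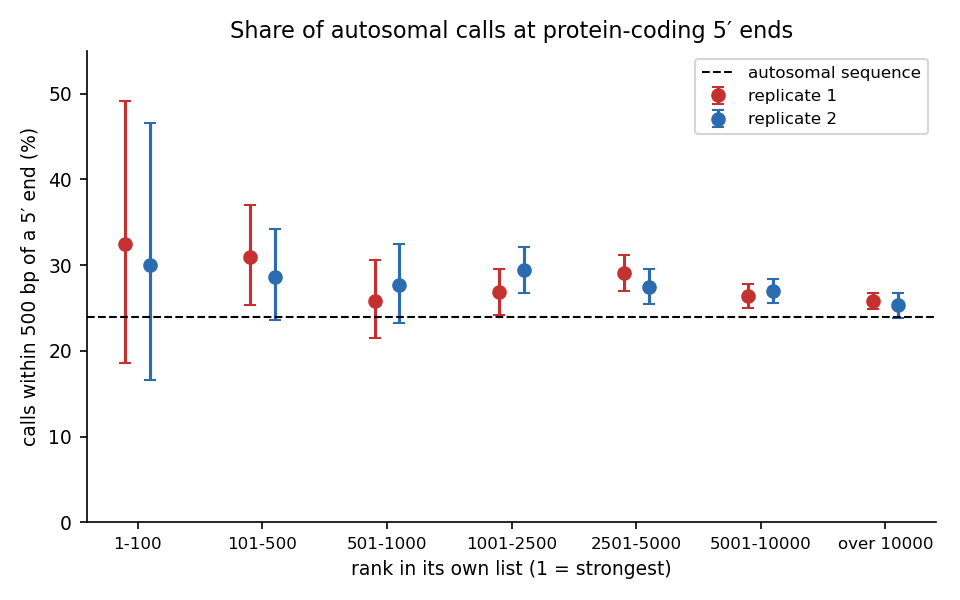
Percent of autosomal calls with the summit within 500 bp of a protein-coding 5′ end (y axis) by rank in their own list (x axis), leaving out calls near small RNA genes. Points are shares in replicate 1 (red) and replicate 2 (blue), bars are exact 95% intervals over calls, and the dashed line is the 24.0% of autosomal sequence that lies that near; points run from 25.3% to 32.5%.

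Within the 500 bp on either side, the summits were spread much as the sequence is. Measured from the nearest end, 457 summits were upstream (43.4%), 593 were inside (56.3%) and 4 fell on the first base, with a median position 57 bp inside. Of all autosomal bases within 500 bp of an end, 47.8% lie upstream. Summits within 100 bp of the end numbered 242 (23%), against 22.5% of bases. The share per 100 bp fell from 11.9% just inside the end to 5.88% between 400 and 500 bp upstream, where 8.21% of bases lie. The 3234 calls at 5′ ends that were found in replicate 1 only had a like distribution, with 43.7% upstream and 23.5% within 100 bp. At the limit of the rule, the summits at grl-19 (ranks 2103 and 9941) and tos-1 (10138 and 1625) were just inside, at 500 bp, and those at T16G12.13 (10189 and 1226) and dct-16 (16391 and 9319) just outside, 1 bp beyond the limit. There were 92 summits between 450 and 500 bp, and 87 other reproducible calls lay in the 50 bp beyond.

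**Figure D3:**
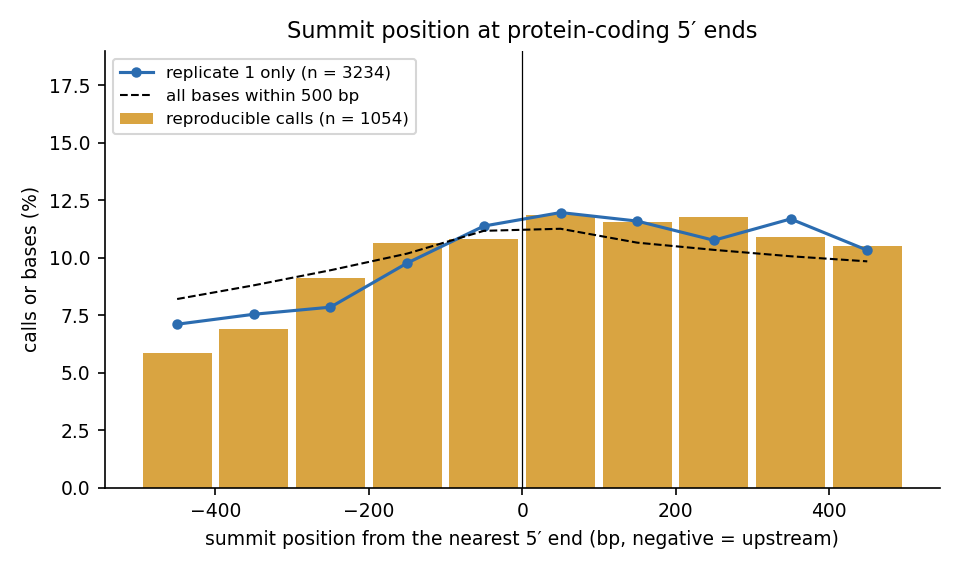
Position of the summit from the nearest protein-coding 5′ end in bins of 100 bp (x axis, negative is upstream) as a percent of calls or bases (y axis). Bars are the 1054 reproducible calls, the blue line the 3234 calls of replicate 1 only, and the dashed line all autosomal bases within 500 bp; the bin just inside the 5′ end holds 11.9% of calls, beside 10.8% and 11.6% in its neighbours.

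By annotation, coding exons held the largest part of the summits. They held 393 of the 1054 (37.3%, interval 34.4 to 40.3), against 30.1% of the bases within 500 bp of a 5′ end. Sequence outside protein-coding genes held 27% of summits and 32.2% of bases, introns 25.3% and 29.5%, and untranslated regions 10.3% and 8.30%. The calls of replicate 1 only lay in coding exons in 35.5% of cases, which is also above the share of bases.

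GC content was above that of the flanks at summits in coding exons and close to that of the flanks at the other summits. It was above the mean of like bases in coding exons, in introns, in untranslated regions and outside genes. Within 100 bp of the 1054 summits the GC content was 38.8% ± 7.50 (SD over calls), and in the flanking windows, 1000 bp away on each side, it was 36.5% ± 5.42. Per call, the summit exceeded its flanks by 2.32 ± 8.81 points on average, and the difference was positive at 631 calls (59.9%). At the 393 calls in coding exons it was 5.93 ± 8.66 points, positive at 302 (76.8%), while at the other 661 it was 0.171 ± 8.18 points, positive at 329 (49.8%). Coding sequence is itself richer in G and C. Over all bases in coding exons within 500 bp of a 5′ end the GC content averaged 39.3%, the 393 calls there averaged 42.5%, and the calls of replicate 1 only in coding exons averaged 40.1%. Outside protein-coding genes the calls averaged 36.4% and the bases 33.9%. In introns the values were 36.9% and 34.3%, and in untranslated regions 36.8% and 34.9%. The SE over calls was 0.374 points in coding exons, 0.399 outside genes, 0.407 in introns and 0.622 in untranslated regions. The calls were thus above the mean of the bases in each of these classes by several SE, though calls that overlap are not independent. Bases also differed from their flanks, by 3.37 points on average in coding exons, -1.96 outside genes, -1.12 in introns and -1.12 in untranslated regions. The calls differed from theirs by 5.93, -0.279, 0.915 and -0.475 points in the same order. In untranslated regions the SE over calls of that difference was 0.818 points.

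The same GC level was present at reproducible calls away from 5′ ends. The 2736 other reproducible autosomal calls averaged 39.2% ± 7.59, with a difference from their flanks of 2.68 ± 8.43 points. The 3234 calls of replicate 1 only at 5′ ends averaged 37.3% ± 6.97, with a difference of 1.49 ± 8.12 points, and the 9169 such calls elsewhere averaged 37.2%. All autosomal 5′ ends averaged 36.2% ± 5.63. GC content moved little between 4 equal groups by the worse rank. Strongest first, they averaged 39.4%, 39.3%, 38.4% and 38.3%. It was higher at the strongest end, with 41.1% (SE 0.844) at the first 100 calls by worse rank. The 137 calls that overlap a pooled call averaged 40.1% (SE 0.693). With the summits of replicate 2 the 1054 calls averaged 39.1%. The SE over calls was 0.231 points for the 1054, 0.145 for the other reproducible calls and 0.122 for the calls of replicate 1 only, and between 0.435 and 0.50 in the 4 rank groups. The gap to the calls of replicate 1 only and to all 5′ ends was several SE, and the gap to the other reproducible calls and between the rank groups was under 3 SE. Calls that overlap or share a partner are not independent. These SE thus describe spread over calls, and the gaps were not tested.

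**Figure D4:**
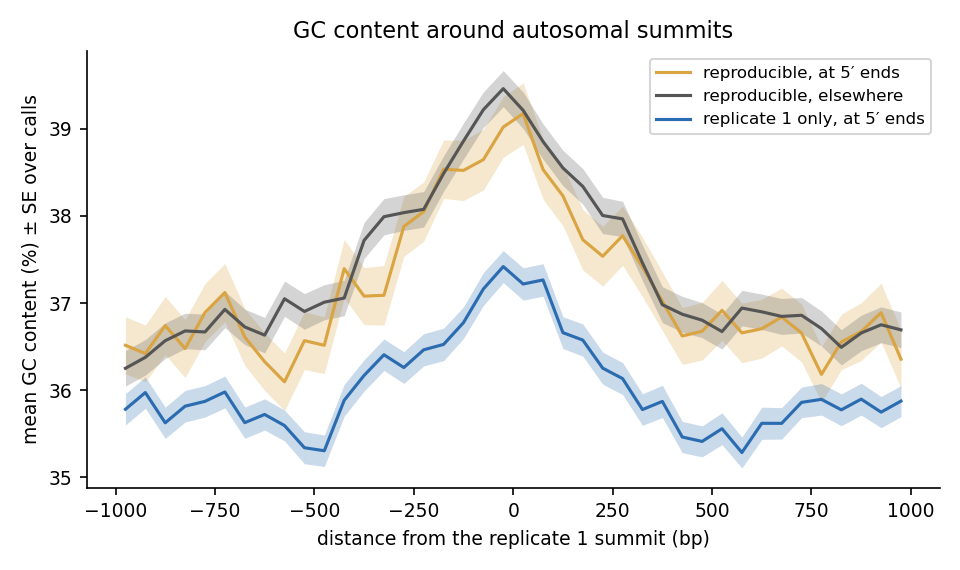
Mean GC content in bins of 50 bp (y axis, percent) by distance from the replicate 1 summit (x axis, bp), with bands of 1 SE over calls. Reproducible calls at 5′ ends (orange, 1054) and elsewhere (grey, 2736) rise to a similar level at the summit, and calls of replicate 1 only at 5′ ends (blue, 3234) stay lower along the whole window.

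Of 12 short motifs searched on both strands within 100 bases of each summit, none was more frequent at the 1054 calls than at all 5′ ends beyond the counting interval. TTTCAG, the letters of the splice and trans-splice acceptor, was in 37.6% of call windows (interval 34.6 to 40.6) and in 42% of the 17242 windows centred on autosomal 5′ ends. The promoter element known as the TATA box (TATAAA) was found in 18.8% and 26.7%. A site bound by GATA-type zinc finger factors (TGATAA) was found in 17.3% and 20.9%. The GAGA repeat (GAGAGA) was found in 12.9% of call windows and 14.1% of end windows. The E-box (CACGTG) was found in 3.89% and 4.67%, respectively. The core of the cyclic AMP response element (TGACGT) was found in 6.93% and 7.13%. The GC box (GGGCGG) was found in 5.50% and 5.12%. The inverted repeat TTCGAA was found in 11.8% and 12.6%. A tract of T bases (TTTTTTTT) was found in 17.8% and 19.2%. The palindrome AAAATTTT was found in 7.21% and 6.69%. The inverted CCAAT letters (ATTGGC) were found in 6.93% and 7.73%. The alternating run CGCGCG was found in 1.23% and 1.42%. The GC box and the AAAATTTT palindrome were thus slightly more frequent at calls, within counting error. The calls of replicate 1 only held the acceptor letters in 36%, the TATA box in 19.5% and the GATA factor site in 18%. The acceptor letters were in 32.2% of the other reproducible autosomal calls (30.5 to 34.0), below the interval at the 1054. ATTGGC was in 10.5% of the other reproducible autosomal calls and in 9.06% of the calls of replicate 1 only, both above the interval at the 1054 (5.47 to 8.63). Call windows centre up to 500 bp from the 5′ end, so the columns differ in position as well. The motifs were matched as exact letters, and those that overlap each other were each counted.

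The calls lay near 5′ ends of 984 genes, which is 5.71% of the 17242 protein-coding genes of the autosomes. Of these, 861 genes had 1 call, 4 had 3 and the rest had 2. The 4 were atf-7, a transcription factor of stress and immune responses, atx-2, the worm ataxin-2, T01B7.5 and F42A6.6. All 4 have several annotated 5′ ends, between 4 and 6. The number of annotated ends went with the chance of having a call. Genes with 1 end had one in 4.56% of cases (579 of 12691), genes with 2 in 6.59% and genes with 3 or more in 12.9% (214 of 1653). The same was seen for calls of replicate 1 only, with 14.7%, 20.6% and 27.1%. More ends mean more sequence within 500 bp of one.

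Shares by gene family are given below with, for the lists at either extreme, the share among genes with 1 end. The 35 lists were built from gene symbols, and 17 had a share above 5.71%. For 2 the exact interval lay above it, for 1 of these by less than the printed digits show, and for 2 wholly below. The list of protein kinases by symbol had 9 of 68 (13.2%, interval 6.23 to 23.6). Within it, the strongest after kin-14 was zak-1, a kinase upstream of mitogen-activated protein kinases, with ranks 213 and 3120. Next in the list was max-2, a p21-activated kinase, with ranks 3864 and 738. Genes outside the list, such as cdkl-1 (ranks 3544 and 3166), were not counted. These kinase genes have 2.74 annotated 5′ ends on average, against 1.46 for all autosomal genes. Of the 32 kinase genes with 1 end, 1 had a call (3.13%), against 4.56% of all such genes. Muscle contractile proteins had 5 of 30 (16.7%, interval 5.64 to 34.7). They included unc-15, paramyosin (ranks 3647 and 8120), lev-11, tropomyosin (9779 and 3006), and unc-89, an M-line protein (8962 and 11911). Of the 17 with 1 end, 1 had a call (5.88%). The list of P granule and germline RNA proteins had 9 of 74 (12.2%), with an interval of 5.71 to 21.8 whose lower limit equals the share of all genes as printed. The symbol patterns behind this list also took in lag-2, a Notch ligand, and atx-3, a deubiquitinase, so its share is not one of P granule proteins alone. It was led by atx-2 (303 and 4197), gls-1, a germline survival factor (6146 and 2519), and mex-3, a KH-domain RNA-binding protein (8811 and 10297). Of the 49 with 1 end, 3 had a call (6.12%). The list of nucleolar, pre-rRNA and WD-repeat proteins had 7 of 53 (13.2%, interval 5.48 to 25.3), led by fust-1 (2860 and 1857), wdr-23 (4190 and 2491) and rrp-1 (7510 and 4325). It has 1.70 ends per gene, and 4 of its 35 genes with 1 end had a call. Its share was thus lower among such genes too, but fell less than those of kinases and muscle proteins did. These counts are small, and the difference between lists was not tested.

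Transcription factor lists were near or above the share of all genes. They hold only genes with matching symbols. Y17G7B.21 (bZIP domain, ranks 519 and 233) and W02D7.6 (C2H2 zinc finger, 1045 and 147) are thus in none of them. By the worse rank both were stronger than the genes that lead the bZIP and zinc finger lists. Nuclear hormone receptors had 21 of 247 (8.50%, interval 5.34 to 12.7). The strongest were nhr-41 (ranks 2614 and 2291), nhr-114 (4098 and 1459) and nhr-68 (4418 and 4015). Among those with 1 end, 13 of 164 had a call (7.93%). Factors with a basic helix-loop-helix or bZIP domain and their like had 6 of 64 (9.38%), led by skn-1, a regulator of oxidative stress genes (1686 and 6306), jun-1 (9373 and 607) and zip-4 (9636 and 3885). None of the 38 such genes with 1 end had a call. Homeobox genes had 5 of 73 (6.85%), led by ceh-34 (5955 and 7526), and zinc finger genes 4 of 47 (8.51%), led by klf-2 (4144 and 3934). None of these intervals lay outside 5.71%.

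Genes of the cell's core machinery were spread around the same share. Cytosolic ribosomal proteins had 7 of 81 (8.64%, interval 3.55 to 17), with rpl-31 (ranks 3398 and 589) and rps-14 (1850 and 5607) the strongest, and 6 of the 62 with 1 end had a call (9.68%). Mitochondrial ribosomal proteins had 4 of 70 (5.71%), RNA polymerase and Mediator subunits 3 of 48 (6.25%), and translation factors 2 of 41 (4.88%). Heat shock and J-domain proteins had 5 of 47 (10.6%, interval 3.55 to 23.1). Apart from hsp-1, the strongest of these were dnj-8 (4006 and 2297) and hsp-60, the mitochondrial chaperonin (7745 and 8413), so hsp-1 stood far above the rest of its list. Histone genes had 5 of 76 (6.58%), among them his-60, an H4 gene (7587 and 392). Histone genes exist in many near-identical copies, and reads of one copy may be placed at another. No call lay at the 17 vacuolar ATPase genes (upper limit 19.5%), the 42 genes of DNA replication and condensin (8.41%) or the 23 cyclin and cyclin-dependent kinase genes (14.8%).

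The large families of chemoreceptors and of F-box genes had shares below that of all genes. Chemoreceptors, the odour and taste receptors of sensory neurons, had 56 of 1276 (4.39%, interval 3.33 to 5.66). The strongest were srt-8 (ranks 3019 and 2756) and srw-67 (3834 and 3852). The F-box, BTB and MATH list, rich in fast-evolving adaptors of protein degradation, had 12 of 400 (3.00%, interval 1.56 to 5.18), led by btbd-10 (780 and 1274) and fbxa-5 (68 and 1334). C-type lectins, secreted proteins of the immune response, had 9 of 237, and collagens of the cuticle 7 of 143 (4.90%), led by col-34 (498 and 2320). The chemoreceptor and F-box intervals lay below the 5.71% of all genes. These genes have few annotated ends, 1.09 on average for chemoreceptors and 1.16 for the F-box list. Among genes with 1 end, 50 of 1181 chemoreceptors had a call (4.23%), close to the 4.56% of all such genes, and 9 of 353 of the F-box list (2.55%). No test was made over lists, which were chosen with earlier results of these data known.

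**Figure D5:**
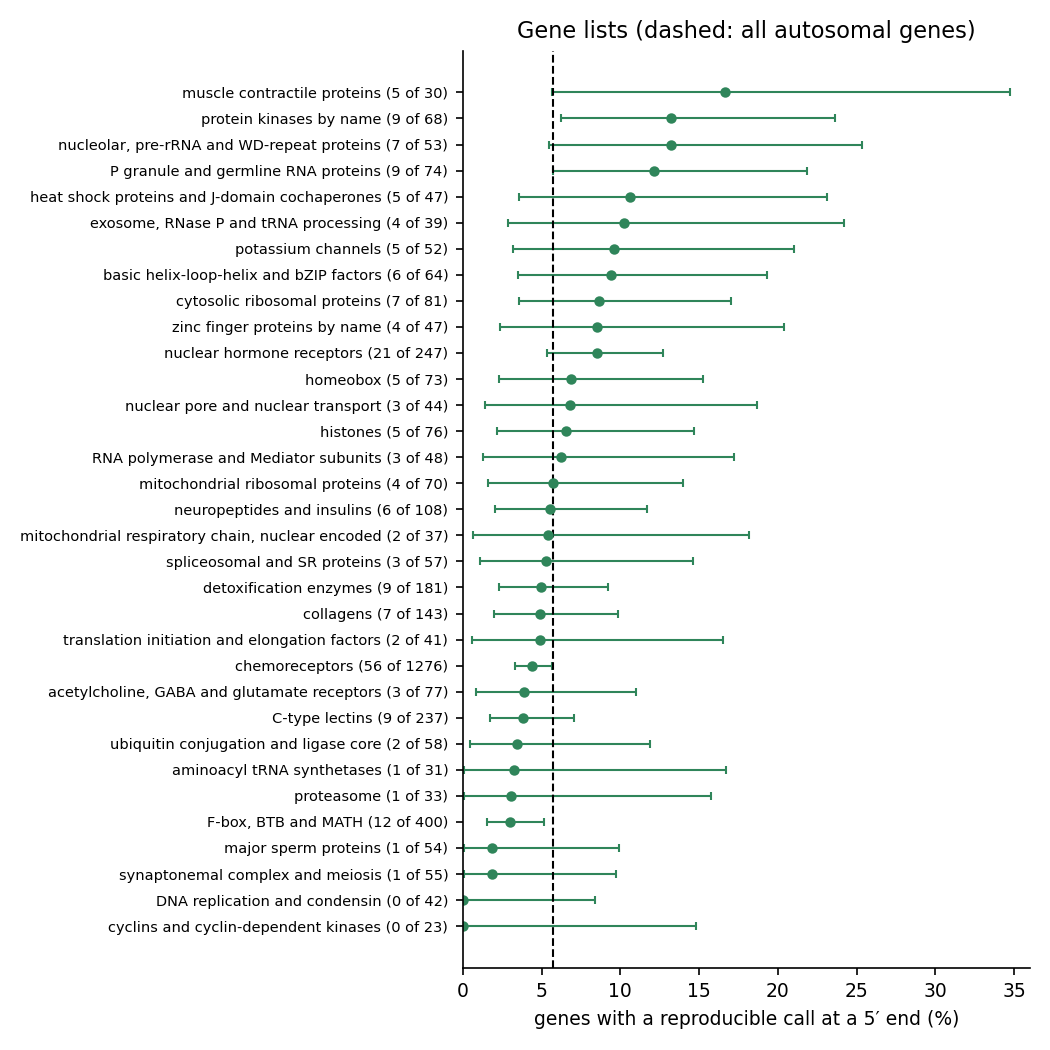
Percent of the autosomal genes of each list that had a reproducible call within 500 bp of a 5′ end (x axis), for lists of 20 or more genes, with exact 95% intervals over genes. The dashed line is the 5.71% of all autosomal protein-coding genes; nearly all intervals include it, and among the lists at the top, muscle proteins and kinases have 2.70 and 2.74 annotated 5′ ends per gene and the nucleolar list 1.70.

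Divergent layout, with the 5′ ends of a gene pair back to back, was not more common at the calls. Both ends of such a pair lay within 500 bp of the summit at 42 of the 1054 (3.98%, interval 2.89 to 5.35), against 4.57% of all bases within 500 bp of a 5′ end and 3.77% of calls of replicate 1 only. The share depends on how near the summit must be to an end, and so does that of bases. It was 6.13% of calls and 7.02% of bases within 250 bp, and 2.37% and 2.58% within 1000 bp. Both ends of the pair still had to lie within 500 bp, so these values reuse the same divergent calls and are not separate checks. At 500 bp the share of bases lay inside the interval of the calls. Among the strongest 5000 of both lists it was 2.42% of 165. Of the 984 genes, 19.7% had an opposite 5′ end within 1000 bp upstream, against 19.6% of all autosomal genes. The strongest of the 42 was the mdt-26 and ift-43 call. The next by the worse rank were named after their values were seen. The first of them was between asns-1, asparagine synthetase, and slc-17.8 (chromosome V, summit 8545923, ranks 1522 and 1507). It was followed by a call between atx-2 and ecps-1 (chromosome III, summit 10460980, ranks 303 and 4197). Then came the call at atp-1, the alpha subunit of the mitochondrial ATP synthase, and mcrs-1 (chromosome I, summit 12652484, ranks 2300 and 4659). Its summit was in an intron, 207 bp inside atp-1.

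Close spacing on 1 strand, the layout of operons, was somewhat more common. The annotation names no operons, so a gene was counted when a gene on the same strand ended within 500 bp upstream of it. This held for 221 of the 984 genes (22.5%, interval 19.9 to 25.2), against 19.4% of all autosomal genes, and also for 22.3% of the 2907 genes at calls of replicate 1 only. Within 200 bp it held for 14.5% (12.4 to 16.9) against 10.3%. Within 1000 bp it held for 31.0% against 30.4%. Genes that open such a run, with a close follower but no close predecessor, made up 11.9% (9.93 to 14.1) against 14.1%. Among the 20 strongest calls, cif-1, C56C10.7, C47E8.11, Y17G7B.21 and F42A6.6 had a close predecessor. A summit near the 5′ end of such a gene is also near the 3′ end of its predecessor. The 984 genes were also longer than the average gene, with a median of 2275 bp against 1964 bp, and 41.2% had more than 1 annotated 5′ end, against 26.4%. The same held at calls of replicate 1 only, with a median of 2177 bp and 35.9%.

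The calls were spread over all 5 autosomes in near proportion to their genes. The share of genes with a call ran from 5.39% on chromosome I to 6.17% on chromosome III, and the density of calls from 10.9 per Mb on chromosome I to 14.7 on chromosome V. The central stretch of each chromosome, 1 of 3 equal parts, held 35.1% of the calls (interval 32.2 to 38.1) and 38.1% of the genes. Repeated sequence was rare. No 32-base word was repeated elsewhere in the genome in 971 of the 1054 windows (92.1%), and words were repeated over at least 50% of the window in 3 (0.285%), against 1.21% of the other reproducible autosomal calls.

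None of the calls was at F55B11.4 itself, the tagged gene (chromosome IV, 14429572 to 14430920). The nearest summit of replicate 1 was 204 bp from its 5′ end, ranked 13357, and was not among the 1054. At unc-119, the gene mutated in this strain (chromosome III, 10902641 to 10908935), there were 2, with summits 9 bp and 303 bp inside the gene. They ranked 17132 and 13477 in replicate 1 and shared 1 replicate 2 call, rank 11034, so both were among the weaker calls of each list.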

How the data were processed

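The authors made each list of calls from an immunoprecipitated library and a control library on genome build ce11, per notes deposited with the files, and the pooled and optimal lists from both libraries together. Aligner, peak caller and thresholds: not given in the sources used here. The score of each call and the −log10 of its q-value are values the authors deposited. Columns 5 and 8 are constant and were left out. The depth of reads is unknown, so intervals cover the counting of calls or genes only. The files on build ce10 were not used here.

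Summits were compared with the Ensembl release 115 annotation and the RefSeq sequence of WBcel235, the assembly behind ce11, with Python 3.11.15, NumPy 2.4.6, SciPy 1.17.1 and pandas 2.3.3. Where a call overlapped several replicate 2 calls, the best ranked was used. Bases within 500 bp of a 5′ end served as the positional reference. A base or summit was assigned in the order coding exon, untranslated region, intron. The rule for calls was checked on simulated calls. Product names came from RefSeq. The genes named are those at the 20 calls with the smallest worse rank, at optimal peaks and the 10 highest pooled scores, up to 3 per list, and F55B11.4 and unc-119; those added after values were seen are marked. The calls and lists were chosen with earlier results of these data known. With 1 group of 2 libraries, no test between conditions was possible, and none was made over calls.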

Additional observations from a re-analysis of the deposited data

How the results depend on the processing

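The number of calls followed the distance and the lists required. With a 5′ end within 250 bp there were 587 calls, and 6.13% of them were at divergent ends. The share of reproducible autosomal calls that near was 15.4%, against 12.8% of sequence. Within 1000 bp there were 1775 calls, with 2.37% at divergent ends and a share of 47.0% (42.5% of sequence). The shares at 5′ ends count calls near small RNA genes, which the numbers of calls leave out. With the outermost 5′ end of each gene the share was 22.1% (19.6% of sequence), and 25.3% of genes had a close predecessor. Limited to the strongest 5000 calls of each replicate, 165 calls remained, with a share at 5′ ends of 29.8%, a divergent share of 2.42%, a close predecessor for 25.9% of genes and a rank correlation of 0.20. A gap of 200 bp gave a close predecessor for 14.5% of genes and a gap of 1000 bp for 31.0%. Without the requirement of a second replicate there were 3040 to 4288 calls. The GC difference stayed positive under each alternative tried and ran from 1.63 points, within 250 bp, to 2.72, for replicate 2 calls. It was 1.69 without replicate 2 and 2.03 without replicate 1. The rank correlation stayed positive as well. No paired analysis was possible because the series has 1 group. The unknown read depth and the high q-values limit how firmly any single weak call can be read.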
